A study of Rattus norvegicus with 6 samples.

Results

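Galanin is a neuropeptide encoded by Gal, and its 3 known receptors are encoded by Galr1, Galr2 and Galr3. These 4 genes were followed on 6 single-colour rat arrays, each hybridised with Cy3-labelled material from 100 ng of total RNA of cultured bone marrow cells. The cells came from male rats 8 weeks old and grew under osteogenic conditions, which favour bone-forming cells. On day 10, 3 samples had been treated with pulsed ultrasound of low intensity (LIPUS), which acts on cells mechanically, and 3 control samples had not. The labels name no strain, donor animal or culture, so p-values measure only the spread between these samples, which may be technical. The members are 4 of the 8899 genes named here, and were found by the RefSeq accession of each probe. They have 4 of 41012 probes and 13 of 43379 gene spots: 10 spots for Gal and 1 for each receptor. They were selected on a measured value: the LIPUS minus control difference of Gal was already known from these arrays to be large, so the members' differences are described without a test.

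Galanin is cut from a larger precursor in the regulated secretory pathway, and in the rat its end is amidated. It is best known from sensory, hypothalamic and autonomic neurons, where it modulates pain, feeding and transmitter release, and it has also been described in bone and healing fractures. The receptors encoded by Galr1 and Galr3 act mainly through Gi/o proteins, which lower cyclic AMP, whereas that of Galr2 acts mainly through Gq and phospholipase C.

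The 250 bases before the start of Gal are shown because cyclic AMP response elements and a TATA box have a place in accounts of galanin transcription, and Gal was the member whose signal stood clear of the background. The sequence is RefSeq's for assembly GRCr8, chr1:210084573-210084822, minus strand, and the capitals mark TGACG, the core of the cyclic AMP response element (CRE), and TATAAA, the TATA box.
Gal: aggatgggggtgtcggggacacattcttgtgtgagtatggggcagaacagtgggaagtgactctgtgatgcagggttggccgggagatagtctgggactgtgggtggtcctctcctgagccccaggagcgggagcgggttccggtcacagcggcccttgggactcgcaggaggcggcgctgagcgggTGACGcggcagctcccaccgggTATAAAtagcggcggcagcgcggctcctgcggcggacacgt
TGACG begins 63 bases before the start site and TATAAA 41 bases before it. Both strands were searched, and TGACG also occurs inside the full element TGACGTCA. Of 33469 rat promoters of the same length, 18.2% hold TGACG and 12.9% hold TATAAA. The full element TGACGTCA (1.59% of promoters), the AP-1 motif TGANTCA (6.34%) and the STAT motif TTCNNNGAA (7.67%) do not occur in the window. The oestrogen receptor core GGTCA occurs 1 time, beginning 108 bases before the start, and is held by 35.4% of promoters. A match of letters is a description of the sequence, and no binding was measured.

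Across the arrays, 55.3% to 61.9% of gene probes on LIPUS arrays and 53.5% to 61.3% on control arrays were above the background limit, taken per array as the 95th percentile over its 153 negative controls. Median spot intensity was 152 to 185 on LIPUS arrays and 173 to 213 on control arrays. Profiles of the 6 arrays were correlated across genes at 0.964 to 0.986. The position of the scanned grid placed the 3 LIPUS arrays and control 3 on 1 slide and controls 1 and 2 on another. This slide assignment is inferred, and slide and treatment are partly confounded. The slide of controls 1 and 2 holds no LIPUS array. With the slide as a block, each difference is therefore that of the LIPUS arrays from control 3 alone. Limma called 1449 of 21847 genes and probes tested at an adjusted p under 0.05 (6.63%), 632 of them higher in LIPUS samples (2.89%) and 817 lower (3.74%).

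Gal was bright in LIPUS samples and dim, though above background, in control samples. The mean of its 10 spots, as spot minus local background, was 1629.7, 1322.2 and 1350.6 intensity units on the LIPUS arrays, against 342.9, 245.2 and 252.8 on the control arrays. The 3 LIPUS samples lay close together, and the lowest of them was 3.86 times the highest control. Set against each array's own background limit, Gal reached 16.1, 15.6 and 27.2 times the limit in LIPUS samples and 2.57, 2.19 and 2.56 times in control samples. No pixel of these spots was saturated. The accession of its probe is NM_033237, and no other probe on the array carries the symbol.

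The log2 level is the background-corrected log2 intensity minus the array's 75th percentile over gene probes. It was 1.02, 1.02 and 0.93 for Gal in LIPUS samples, against -1.11, -1.13 and -1.52 in control samples, and the groups did not overlap. Gal averaged 0.99 ± 0.06 in LIPUS samples and -1.25 ± 0.23 in control samples (SD, n = 3 each), a difference of 2.24 on the log2 scale, or 4.72-fold. Its moderated standard error in the limma fit was 0.17. Groups that do not overlap, with LIPUS higher, were found for 14.4% of all genes and probes tested, and since the choice of Gal used this contrast nothing is read from that share. By size of difference, Gal stood 4th from the top among 21847 genes and probes and 2nd among 5697 named genes. For the same reason nothing is read from that rank. The level of Gal lay at the 69.7th percentile of tested probes in LIPUS samples and at the 32.5th in control samples.

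**Figure D1:**
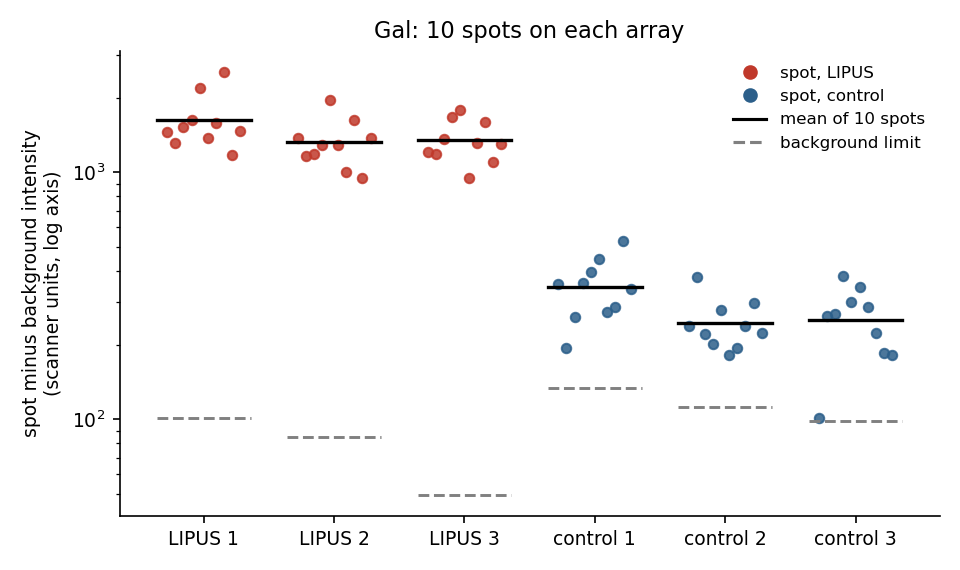
Spot minus local background intensity of Gal (scanner units, log axis) for each of its 10 spots on the 3 LIPUS and 3 control arrays. Each spot is given by the median of its pixels. Bars are the means of 10 spots and dashed lines the background limit of each array. The lowest LIPUS spot (950) lies above the highest control spot (529).

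The 10 spots of Gal are technical repeats of 1 probe at 10 places on the array. On LIPUS array 1 they spanned 1174 to 2553 with a median of 1498.5, on LIPUS array 2 they spanned 950 to 1959 with a median of 1291, and on LIPUS array 3 they spanned 951 to 1788 with a median of 1313. The control spots spanned 195 to 529 (median 345) on control 1, 183 to 377 (median 230.5) on control 2 and 101 to 382 (median 263.5) on control 3. All 10 spots on each of the 6 arrays exceeded that array's limit, the closest being the lowest spot of control 3, at 101 against a limit of 98.8. Place by place, the log2 difference ran between 1.71 and 2.73. At each of the 10 places the 3 LIPUS spots were above the 3 control spots, by the medians of their pixels. At the place with the lowest difference (1.71), the control 3 spot carried a quality mark. The control 2 spot there had a median of 343 but a mean of 2538, before background subtraction. That mean was above those of the 3 LIPUS spots at this place (2061, 1618 and 1210).

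Other probes printed 10 times were counted in the same way. Of 263 such probes, 168 passed the filter on dim probes, and 7 of those (4.17%) were higher in LIPUS samples without overlap at all 10 places. Besides Gal these were probes of Erbb2, Timp1, Cdh2, Gja1 and Ctnnb1 and 1 probe without a symbol. The nearest in size, Erbb2, a receptor tyrosine kinase, differed by 0.98 on the log2 scale. Since the choice of Gal used this contrast, nothing is read from its place among the 168 probes. The spread of the Gal spots within an array, 0.29 (pooled SD, log2), was near the median of 0.27 for these probes.

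The difference in Gal was also computed within the inferred slide that holds both groups. Against control 3 alone, the LIPUS mean was higher by 2.5 on the log2 scale, and against controls 1 and 2 on the other slide by 2.11. In the authors' deposited value table, which is on a log2 scale, Gal stood at 1.38, 1.12 and 1.08 in LIPUS samples and -1.44, -1.49 and -2.38 in control samples, a difference of 2.96. Leaving out 1 array at a time gave 2.11 to 2.31.

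**Figure D2:**
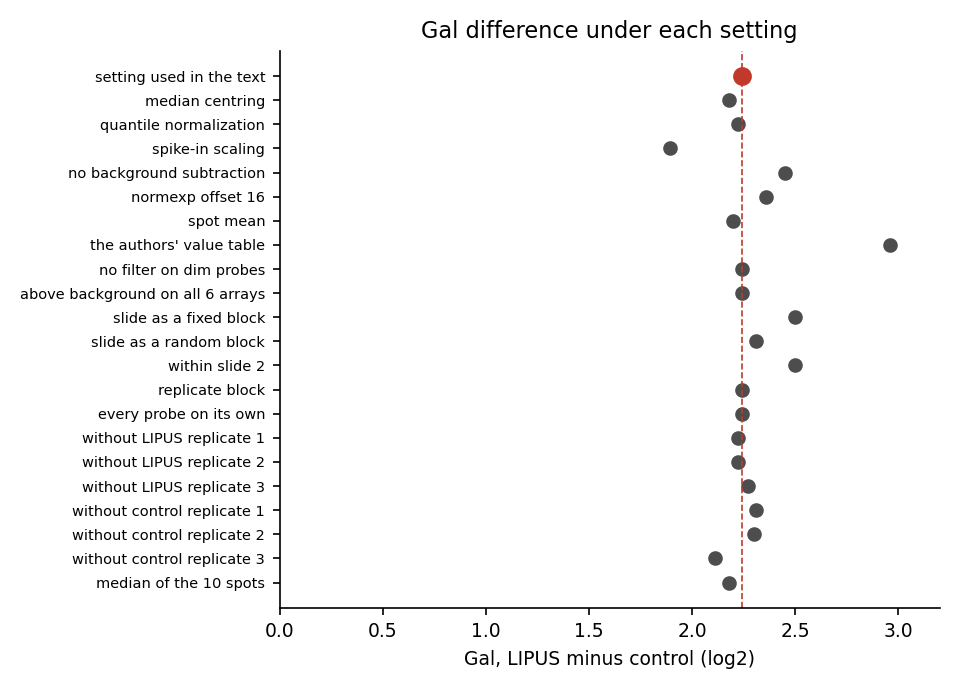
Difference of Gal between LIPUS and control samples (log2) under each processing alternative; the dashed line marks the 2.24 used in the text. All points lie between 1.89, with scaling to spike-in controls, and 2.96, in the authors' value table.

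The receptor probes, in contrast, gave no signal that stood clear of the negative controls in either group, apart from a single Galr3 spot just over its limit. Galr1, the Gi/o-coupled receptor (NM_012958), had a spot minus background intensity of 100, 69 and -2 in LIPUS samples and 100, 64 and 5 in control samples. All 6 values were below the limits of their arrays, the nearest being LIPUS 1 at 100 against 101. Within each group the values of Galr1 and of Galr2 followed the order of the arrays' limits, whereas those of Galr3 ran in the reverse order.

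Galr2, the Gq-coupled receptor (NM_019172), had 50, 26 and 13 in LIPUS samples and 117, 83 and -73 in control samples, all below the limits. The lowest value, in control 3, came from a local background of 128 around a spot of 55. Using the mean instead of the median of the spot's pixels placed 1 LIPUS and 1 control array above the limit.

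Galr3 (NM_019173), the receptor with the closest relation to Galr2, had 8, 20 and 60 in LIPUS samples and 5, 14 and 47 in control samples. The value of 60 in LIPUS 3 exceeded that array's limit of 49.6, the lowest limit of the 6 arrays. With the limit set at the mean plus 2 SD of the negative controls, no array was above it. For these 3 genes no fold is given, since the groups overlapped and both lay at the background, and at this sensitivity a difference was not detectable. The probes carry 1 spot each, so the means of 10 spots behind Gal have no counterpart here.

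**Figure D3:**
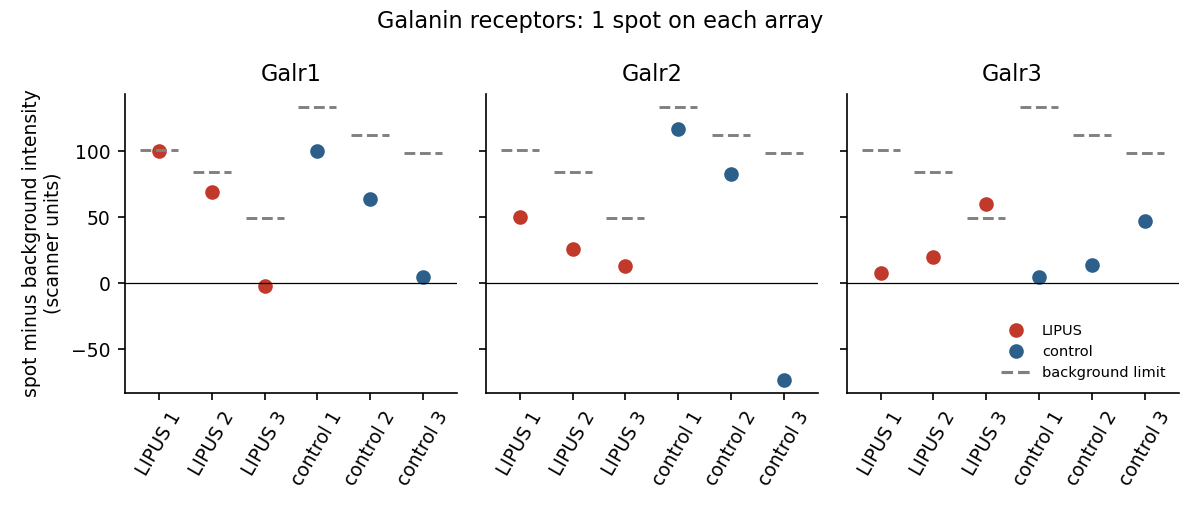
Spot minus local background intensity (scanner units) of Galr1, Galr2 and Galr3 on each LIPUS and control array, with the background limit of that array as a dashed line. Only Galr3 on LIPUS 3, at 60 against 49.6, exceeds its limit.

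The related ligands were at background as well. Galp, encoding galanin-like peptide, had 21, 25 and 1 intensity units in LIPUS samples and 37, 2 and 14 in control samples. Kiss1, encoding kisspeptin, whose receptor is related to the galanin receptors, had 30, 71 and 8 in LIPUS samples and 53, 74 and 59 in control samples. Neither exceeded a limit on any array, and Spx, encoding spexin, a ligand of GALR2 and GALR3, has no probe with that symbol here.

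Around the galanin genes, 7 lists gathered by role held 227 symbols, of which 109 were measured, and limma called 14 of them (12.8%, beside 6.63% of all genes and probes): 5 rose and 9 fell. Of the 21847 genes and probes behind the 6.63%, 5697 are named genes. Among genes and probes above background on all 6 arrays, 1831 of 16726 were called, so no excess is read from the 12.8%. The median difference of the 109 was 0.07, against 0.03 over all genes and probes tested. The counts of each list below stand beside the same 6.63%, that is 2.89% higher in LIPUS samples and 3.74% lower. With the inferred slide as a block, 3 of the 14 calls remained, and 7 held when any 1 array was left out.

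Genes that cut, trim and amidate peptide precursors or form secretory granules included 10 measured of 26 listed. Of the 10, 2 rose, none fell and 8 did not pass, with a median of 0.30. Pam, the amidating enzyme that finishes galanin in the rat, had log2 levels of 3.94, 3.96 and 4.01 in LIPUS samples and 3.13, 3.12 and 3.28 in control samples. All LIPUS samples were above all controls, and Pam rose by 0.79 ± 0.15 (moderated SE; limma adjusted p = 0.0151). With the slide as a block the adjusted p was 0.127, and it was 0.0546 to 0.065 without any of the arrays other than control 3.

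Cpe, the carboxypeptidase that trims basic residues after cleavage, had 4.58, 4.80 and 4.65 in LIPUS samples and 4.17, 3.96 and 3.87 in control samples, without overlap. It rose by 0.67 ± 0.16 (limma adjusted p = 0.0396), a call that ended without any 1 of the 6 arrays (0.056 to 0.141) and with the slide as a block (adjusted p = 0.117). The convertase Pcsk6 averaged 5.42 ± 0.10 in LIPUS samples and 4.78 ± 0.30 in control samples and did not pass (limma adjusted p = 0.0742), and Cpd, another carboxypeptidase, differed by 0.20 ± 0.16 (adjusted p = 0.512). The neuroendocrine convertases Pcsk1 and Pcsk2 and the granins Chga, Chgb, Scg2 and Vgf were among 11 genes too dim to be measured.

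Peptidases that break down neuropeptides included 9 measured of 11 listed, with a median difference of -0.06, and none passed. Ece1, an endothelin-converting enzyme, averaged 3.95 ± 0.23 in LIPUS samples and 4.31 ± 0.10 in control samples (limma adjusted p = 0.259). For Mme, encoding neprilysin, the means were 3.2 ± 0.04 in LIPUS samples and 3.06 ± 0.16 in control samples (adjusted p = 0.647).

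Other neuropeptide and peptide hormone precursors included 24 measured of 62 listed: 1 rose, 2 fell and 21 did not pass, with a median of 0.08. Cort, encoding the somatostatin-related cortistatin, rose. Its log2 levels were 1.03, 0.54 and 0.91 in LIPUS samples and -0.50, -0.45 and -1.04 in control samples, a rise of 1.49 ± 0.21 or 2.81-fold (limma adjusted p = 0.00397). The call held with the slide as a block (0.029) and without each array in turn (at most 0.0199).

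Penk, the enkephalin precursor, fell, with 3.12, 3.28 and 3.18 in LIPUS samples and 4.70, 4.48 and 4.36 in control samples. Its difference was -1.32 ± 0.16 (limma adjusted p = 0.00196, and 0.0467 with the slide as a block). Another Penk probe, at background on 3 of the 6 arrays, differed by 0.00. Rln1, encoding the hormone relaxin, averaged -1.12 ± 0.21 in LIPUS samples and 0.22 ± 0.41 in control samples, a difference of -1.34 ± 0.23 (limma adjusted p = 0.00824, and 0.127 with the slide as a block). Adm, encoding adrenomedullin, averaged 3.97 ± 0.10 in LIPUS samples and 4.63 ± 0.23 in control samples (adjusted p = 0.0552), and the mean levels of Apln, encoding apelin, were 3.63 in LIPUS samples and 4.07 in control samples (adjusted p = 0.205). The precursors Tac1, Sst, Crh, Trh and Grp were among 31 too dim to be measured.

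Receptors of other neuropeptides, listed together with the receptor partner proteins Ramp1, Ramp2 and Ramp3, included 15 measured of 52 listed. Another 34 were too dim, among them Calcrl, encoding the calcitonin receptor-like receptor. Of the 15, none rose, 3 fell and 12 did not pass, with a median of -0.07. Ramp2, a partner protein that makes the calcitonin receptor-like receptor respond to adrenomedullin, had -1.97, -1.25 and -1.50 in LIPUS samples and -0.44, -0.24 and -0.35 in control samples, and was above background on 2 of 3 LIPUS arrays. The same probe of Ramp2 is also counted among the endothelial markers below. It fell by 1.23 (SE 0.20; limma adjusted p = 0.00742, and 0.104 with the slide as a block). The partner for calcitonin gene-related peptide, Ramp1, averaged 3.44 ± 0.13 in LIPUS samples and 4.15 ± 0.16 in control samples (limma adjusted p = 0.035). Npr1, a natriuretic peptide receptor, averaged 2.64 ± 0.02 in LIPUS samples and 3.43 ± 0.11 in control samples (limma adjusted p = 0.0163). The calls of Ramp1 and Npr1 ended with the slide as a block (adjusted p = 0.249 and 0.135) and without any array other than control 3 (0.0703 to 0.126 and 0.0513 to 0.0733). Npr2 and Oprd1 did not pass, with differences of 0.55 ± 0.17 and -0.18 ± 0.21.

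G proteins and effectors through which galanin receptors signal were mostly measured, 31 of 43 listed, in contrast to the receptors. None rose, 2 fell and 29 did not pass, with a median of 0.07, so the share called was near the 6.63% over all genes and probes. Prkcb, a protein kinase C isoform downstream of phospholipase C, had 0.81, 0.74 and 1.03 in LIPUS samples and 2.76, 2.69 and 2.58 in control samples, and fell by 1.82 on the log2 scale or 3.53-fold (SE 0.16; limma adjusted p = 0.000514, and 0.026 with the slide as a block). Plcb1, a phospholipase C beta, averaged -1.77 ± 0.18 in LIPUS samples and -0.96 ± 0.20 in control samples (limma adjusted p = 0.027). That call ended with the slide as a block (0.153) and without LIPUS 1, LIPUS 2 or control 1 (0.0919 to 0.109), and its other probe differed by 0.07. The G protein subunit Gnb1 (-0.35 ± 0.17) and the calcium release channel Itpr1 (0.42 ± 0.16) did not pass; 4 dimmer probes of Gnb1 differed the other way, by 0.07 to 0.43.

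Signals and factors that act on galanin expression in neurons or pituitary included 20 measured of 32 listed: 2 rose, 2 fell and 16 did not pass, with a median of 0.07. Jun, an AP-1 subunit, had 2.14, 1.82 and 2.03 in LIPUS samples and 3.35, 3.39 and 2.84 in control samples, and fell by 1.20 (SE 0.20; limma adjusted p = 0.00714). Fos, its AP-1 partner, had 0.53, -0.68 and -0.01 in LIPUS samples and 1.59, 1.62 and 1.37 in control samples, and fell by 1.58 (SE 0.27; limma adjusted p = 0.00923). With the slide as a block the adjusted p was 0.107 for Jun and 0.16 for Fos.

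Lifr, the receptor of leukaemia inhibitory factor, averaged 0.12 ± 0.26 in LIPUS samples and -0.70 ± 0.13 in control samples (limma adjusted p = 0.0296). Vdr, the vitamin D receptor, averaged -0.60 ± 0.17 in LIPUS samples and -1.32 ± 0.13 in control samples (limma adjusted p = 0.0345). Both calls ended with the slide as a block (adjusted p = 0.236 and 0.242), that of Lifr also without any 1 of LIPUS 2, LIPUS 3, control 1 and control 2 (0.0862 to 0.113), and that of Vdr without any array other than control 3 (0.0585 to 0.126). The neurotrophic factor Gdnf (-0.11 ± 0.20) and Stat3, which acts downstream of leukaemia inhibitory factor (-0.20 ± 0.20), did not pass, and a dimmer Stat3 probe differed by 0.44. Il6, Osm, Bdnf, Esr1 and Sox11 were among 9 genes too dim to be measured.

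**Figure D4:**
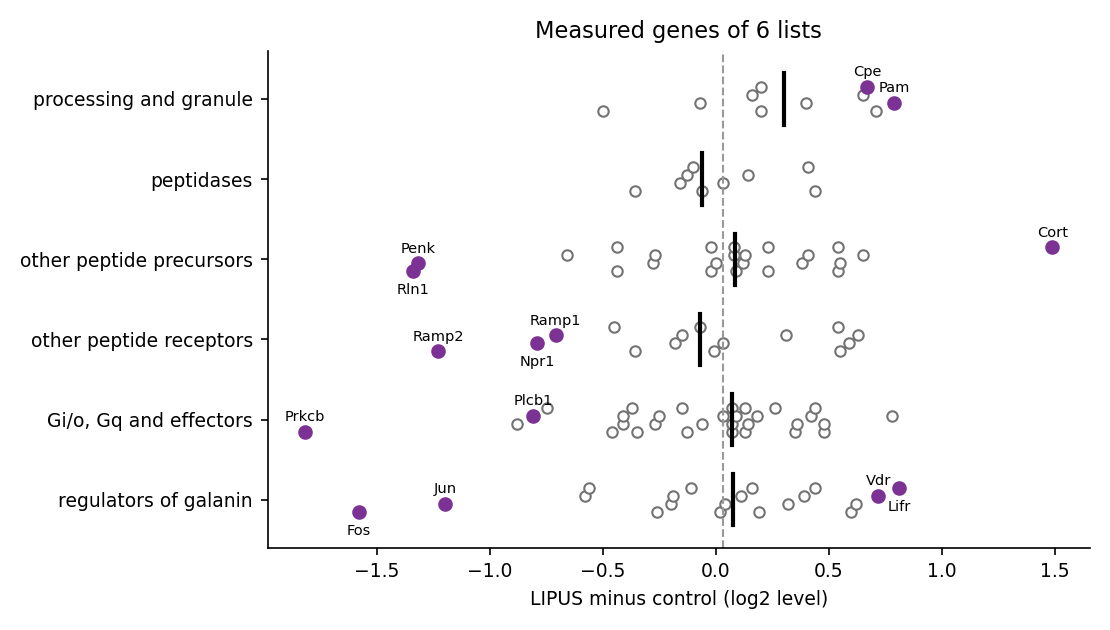
Difference between LIPUS and control samples (log2 level) of each measured gene in 6 lists related to galanin; filled points passed limma's test and are named, open points did not, bars are list medians and the dashed line is the median of all genes tested. The bar of the processing genes stands at 0.30 and those of the other lists between -0.07 and 0.08.

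The protein-coding neighbours of Gal on chromosome 1, in the order of the GRCr8 assembly, were taken 5 on each side; 5 of the 10 were measured, and none passed the test. Their differences were -0.06 ± 0.16 for Mrgprd, 0.42 ± 0.20 for Ighmbp2, 0.11 ± 0.15 for Cpt1a, 0.01 ± 0.18 for C1h11orf24 and -0.10 ± 0.22 for Chka, with limma adjusted p-values of 0.258 to 0.976. The remaining 5 neighbours carry no probe with the symbol here.

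These were RNA samples of whole cultures, in which fewer cells of a type and less RNA per cell cannot be told apart. Beside the counts of markers below, 6.63% of all genes and probes were called, 2.89% higher in LIPUS samples and 3.74% lower. Neuron markers, which would accompany the classical source of galanin, included 3 measured of 20, and none passed. The 14 that were too dim included Snap25, Syp, Stmn2, Gap43, Elavl4 and Th, and the summed level of the 3 measured was 1.56 to 1.69 in LIPUS samples and 1.32 to 1.58 in control samples. Uchl1 differed by 0.56 and Prph by -0.14 (limma adjusted p = 0.115 and 0.675). In the authors' deposited value table Uchl1 differed by 1.29 and passed (limma adjusted p = 0.039), the single neuron marker to do so. Of 13 Schwann cell and glial markers, 6 were measured and none passed, while Mbp and Gfap were among those too dim. Their summed level was 18.4 to 20.3 in LIPUS samples and 24.7 to 32.2 in control samples, most of it from Pmp22, a gene also widely expressed outside glia. Without Pmp22 it was 1.59 to 1.73 in LIPUS samples and 1.51 to 1.71 in control samples.

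Osteoblast markers were present in both groups: 11 of 15 were measured, of which 5 rose, none fell and 6 did not pass. Panx3, a channel protein of maturing osteoblasts, differed by 1.88, and Dmp1, an osteocyte matrix protein, by 1.59. With the slide as a block 3 of the 5 calls held, those of Phex and Mepe ending (adjusted p = 0.101 and 0.0795), and that of Mepe also ended without any LIPUS array or without control 1 (0.0598 to 0.103). Bglap, Spp1 and Col1a2 were at or near the scanner limit on all 6 arrays and Mepe on 3, so the spot tables give no measure of their full difference. In the authors' deposited value table, on its log2 scale, Bglap differed by 1.97, Spp1 by 2.07, Mepe by 2.89 and Col1a2 by 0.11, against 0.24, 0.28, 0.79 and 0.24 in the spot tables. The summed level of the 7 markers below the scanner limit was 138 to 150 in LIPUS samples and 74.2 to 77.4 in control samples.

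Macrophage and monocyte markers went the other way: of 13 measured of 17, none rose and 8 fell, including Clec10a by 2.99 and Fcgr2b by 2.43. With the slide as a block 6 of the 8 calls held, those of Cd14 and C1qc ending (adjusted p = 0.0959 and 0.0589). Leaving out 1 array ended the call of Cd14 (without LIPUS 2 or control 1, 0.0598 to 0.067) and of Csf1r (without any LIPUS array or control 1, 0.0634 to 0.0833). C1qb and Lyz2 were at or near the scanner limit on all 6 arrays, C1qa on 5 and Cd68 on 3, and their differences in the authors' deposited value table were -0.26, 0.11, -1.19 and -0.95. The summed level of the 9 markers below the limit was 60 to 77.2 in LIPUS samples and 197 to 215 in control samples.

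Endothelial markers were scarce, at summed levels of 2.61 to 2.95 in LIPUS samples and 6.02 to 6.70 in control samples, and 3 of 5 fell, Esam, Icam2 and Ramp2, of which Icam2 alone held with the slide as a block (0.036); its call ended without LIPUS 1 (adjusted p = 0.0555). Stromal markers were split, with 2 higher and 2 lower of 11 measured, and none of these 4 calls held with the slide as a block (0.0959 to 0.194), while 2 of them held without each array in turn. Of 7 adipocyte markers Cidec rose (0.124 with the block). The stromal markers Vcam1, which fell, and Cxcl12, which did not pass, were at or near the scanner limit on 3 arrays each. So were Dcn, which rose, on 1 array and the adipocyte marker Fabp4 on 4. These 4 genes differed by -1.07, 0.03, 0.81 and 0.25 in the spot tables, which give no measure of their full difference. In the authors' deposited value table they differed by -1.81, -0.74, 0.83 and 0.21. Of 6 markers of other blood cells S100a8 rose (0.159 with the block) and Pf4, a platelet chemokine, fell (0.0268 with the block). The part of these cell-type levels in the values of Gal, Pam, Cpe, Prkcb, Penk, Jun and Fos was not tested.

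Of 5694 named genes compared, the 5 whose profile over the 6 arrays was nearest to that of Gal were Neu3, Slc27a5, Grin3b, Cpz and Thbs1. Likeness was the root mean square difference in log2 level after each gene was centred on its own mean. That distance was 0.22 for Neu3, a ganglioside sialidase, 0.25 for Slc27a5, a bile acid and fatty acid ligase, 0.25 for Grin3b, a glutamate receptor subunit, 0.29 for Cpz, a carboxypeptidase, and 0.31 for Thbs1, a matrix glycoprotein. Their differences between LIPUS and control samples were 2.23, 2.21, 1.94, 1.74 and 1.78 on the log2 scale, which the choice of these genes fixes. Gal itself lay at 1.15, 1.15 and 1.06 around its mean in LIPUS samples and at -0.98, -1 and -1.38 in control samples. With 6 arrays in 2 groups, likeness here is mostly the difference between the groups, and Slc27a5 was at background in control samples.

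**Figure D5:**
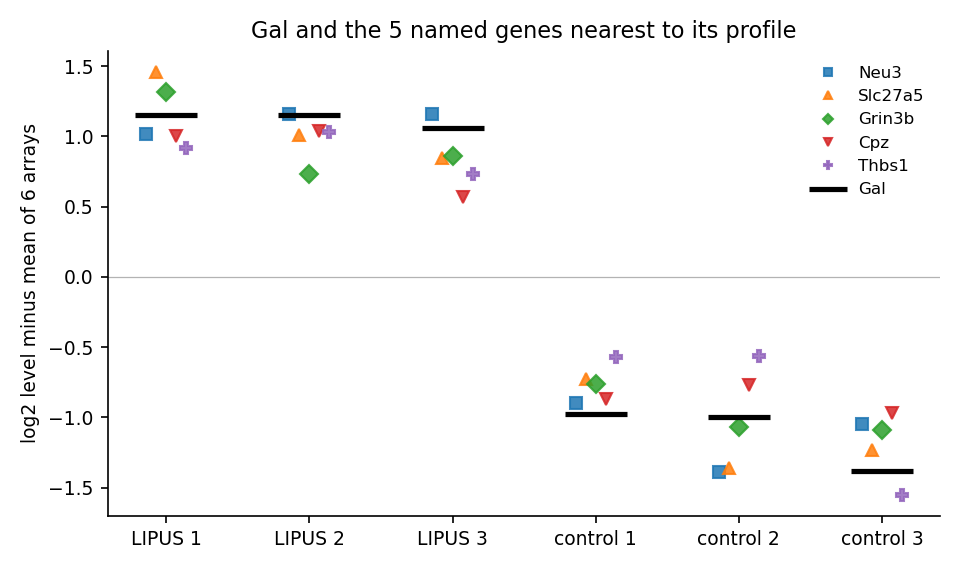
Log2 level minus the gene's mean over 6 arrays, for Gal (black bars) and the 5 named genes with the nearest profile (symbols), on each LIPUS and control array. Gal lies between 1.06 and 1.15 on the LIPUS arrays and between -1.38 and -0.98 on the control arrays.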

How the data were processed

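The members and gene lists were chosen with earlier results of these data known. Per the file headers, the deposited spot tables hold 45220 spots each, with spot and background intensity as scanner units that the authors did not normalize, saturated pixels in percent, and signal-to-noise as a score. The authors' value table is deposited on a log2 scale found from its values, with the 75th percentile at 0 in every column and medians of -2.49, -2.62 and -2.85 (LIPUS) and -2.37, -2.49 and -2.53 (control). How it was made is not given in the sources used here. Since the spot tables have no Agilent processed signal or detection flag, as the plan assumed, limma's normexp (offset 50) on spot and background medians took their place, with the background limit described above. Log2 values were averaged over the spots of a probe, and each array's 75th percentile was subtracted. Probes above the limit on at least 3 of 6 arrays were kept (23260), and the brightest stood for a symbol. Symbols came from a RefSeq table (GRCr8), which named 10687 of the 11138 probes that carry a curated transcript accession. Limma's lmFit and eBayes (two-sided, Benjamini-Hochberg over 21847 genes and probes, threshold 0.05) gave the calls. The procedure was tested on simulated data with independent noise in each gene and no slide effect, a simpler setting than these arrays. Receptor and Gal levels were described without a test; for 3 against 3, an exact permutation test cannot go below 0.1. The genes named were all members, up to 4 genes of each list that passed, by smallest p, up to 2 others with the highest level, and the 5 nearest to Gal; further genes were named after their values were seen. Same-numbered LIPUS and control arrays did not deviate together (correlations of 0.00, 0.01 and -0.01), and the main fit used no pairing. With 3 arrays a group, this cannot show whether the numbers mark a shared animal or culture, which the labels do not name. The precision is limited by the number of arrays. Tools were R 4.3.3, limma 3.58.1, Python 3.11.15, pandas 2.3.3 and matplotlib 3.10.9.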

Additional observations from a re-analysis of the deposited data

How the results depend on the processing

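The LIPUS minus control difference of Gal, 2.24, was 1.89 with spike-in scaling (4 of 10 spike-in probes) and 2.96 in the authors' value table. It was 2.5 with the slide as a fixed block and likewise within slide 2, since both set the LIPUS arrays against control 3 alone. Leaving out 1 array gave 2.11 to 2.31, and the median of the 10 spots, chosen after seeing the data, gave 2.18. The replicate block left it at 2.24 and gave 1175 calls over all genes, 1100 of them shared with the 1449. Calls over all genes numbered 3646 with spike-in scaling, 805 in the value table, 655 with no filter on dim probes, 282 with the slide as a fixed block and 0 by limma within slide 2 (3339 at an unadjusted p under 0.05). They numbered 642 to 2168 with 1 array left out: 719, 652 and 792 without LIPUS 1, 2 and 3, and 642, 786 and 2168 without control 1, 2 and 3. Of the calls, 43.6% were higher in LIPUS samples, against 32.3% with median centring, 5.35% with spike-in scaling, which moved the median gene to -0.32, and 35.7% in the value table. The 14 calls in the galanin lists became 26 with spike-in scaling, 7 in the value table, 7 with no filter, 3 with the slide as a fixed block and 0 within slide 2, and 7 to 18 with 1 array left out. Galr2 was above background on 2 arrays with the spot mean, and Galr3 on 0 arrays, against 1, with the mean plus 2 SD limit. For 59 other named genes, 139 of 1178 recomputed values lost a call, 21 gained one and none reversed. Detection in the value table was not run, since it holds the negative controls as 1 averaged value. The cause of these shifts was not tested. With 3 samples a group, 1 probe a receptor and an inferred slide that holds 1 control and all LIPUS arrays, small differences and signals near the background are not resolved.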
